A study of Mus musculus with 20 samples.

Results

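Lcn2 and 5 genes named after CCAAT/enhancer-binding proteins (Cebpa, Cebpb, Cebpd, Cebpg and Cebpz) were followed through RNA-seq of mouse p19/Nras liver cancer cells with and without Trim33, which encodes a chromatin-binding ubiquitin ligase. They are 6 of the 13156 genes listed in the deposited count tables, and they were taken by symbol. All 6 are in the table of the Myc vector experiment and 5 in that of the hydroxyurea (HU) experiment, while Lcn2 was not analysed in the latter. The genes were chosen by values measured here: targets of C/EBP factors had differed between the knockout lines and had been higher with HU. Differences between the lines and responses to HU are therefore given below as a description of these genes, without a test.

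C/EBP factors are leucine zipper proteins that bind DNA as dimers, with each other or with members of the ATF family. In the liver, C/EBPα maintains the hepatocyte programme, whereas C/EBPβ and C/EBPδ drive the acute phase response to cytokines such as interleukin 6. C/EBPγ lacks an activation domain of its own and pairs with ATF4 in the response to amino acid shortage. Cebpz carries the family name but encodes a nucleolar CCAAT-binding protein without a leucine zipper. Lcn2 encodes lipocalin-2, a secreted protein that captures bacterial iron carriers and is a classical acute phase target of C/EBP factors and NF-kB.

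All libraries came from a single mouse line, derived from a liver tumor that Nras had induced in an animal without p19/Arf, so that every group lacks p19/Arf and expresses Nras. The Myc vector experiment compared cells with a control guide (sgCtrl, Trim33-WT) with the knockout lines Trim33-KO1 and Trim33-KO2 (sgTrim33), each with the empty pWZL vector (Ctrl) or with Myc. The HU experiment compared Trim33-WT (sgCtrl) and Trim33-KO (sgTrim33) cells after vehicle, here called untreated, or after HU, an inhibitor of ribonucleotide reductase that slows DNA replication. The labels name neither the knockout line nor the dose and time of HU in that experiment, while the study's methods state a standard HU concentration and a legend on RNA-seq of HU-treated cells gives a treatment of a few hours. Each of the 10 groups holds 2 libraries. The labels do not tell whether these came from separate cultures, although a legend of the study speaks of independent RNA-seq experiments, and p-values measure only the spread between libraries, which may be technical.

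Total counts per library were 14753177 to 17949430 over 13107 genes in the Myc vector experiment and 2315327 to 3082202 over 11210 genes in the HU experiment, so that the latter is less precise. Levels are given as CPM (counts scaled to library size) after TMM normalization, and the experiments were normalized separately. Trim33 mRNA stood at 246 and 258 CPM in WT Ctrl. KO1 Ctrl had 123 and 130 CPM, KO2 Ctrl 201 and 207. Trim33 mRNA in the libraries with the Myc vector did not follow their labels: those labelled WT Myc had 131 and 155 CPM of Trim33, those labelled KO1 Myc had 185 and 193, and those labelled KO2 Myc had 124 and 125. Across all 13107 genes, the log2 fold change of KO1 against KO2 with the Ctrl vector correlated negatively with that of the libraries labelled KO1 Myc against KO2 Myc (Pearson's r = −0.732, across genes, which are not replicates). Of 1301 genes called in both comparisons, which share no library, 1265 (97.2%) had opposite directions, while 18.3% and 18.5% of all genes were called in either. The cause was not tested. For the difference of the KO mean from WT the correlation between the vectors was positive (r = 0.686). Whether any library carries a wrong label was not tested. The KO mean of Trim33 was below WT with the Ctrl vector (−0.65, SE 0.06, edgeR adjusted p = 5.66e-08), but not among the libraries labelled Myc (0.10, SE 0.06, adjusted p = 0.174). The main comparisons below take the mean of both knockout lines, which does not depend on which of them a knockout library belongs to. They still depend on the label WT Myc, which Trim33 mRNA did not follow, so every comparison with Myc below compares libraries by their labels. Myc mRNA was at 433 and 439 CPM in WT Ctrl against 456 and 458 in the libraries labelled WT Myc (log2 fold change 0.07, edgeR adjusted p = 0.31). KO1 Ctrl had 186 and 196 CPM of Myc, and KO2 Ctrl had 210 and 219. The libraries labelled KO1 Myc had 621 and 646, and those labelled KO2 Myc had 459 and 499. The KO mean of Myc was higher with the Myc vector (1.44, SE 0.04, edgeR adjusted p = 7.04e-13). With the Ctrl vector it was below WT (−1.11, SE 0.05, edgeR adjusted p = 5.46e-12). In the HU experiment, Trim33 was at 125 to 142 CPM in the 4 WT libraries and at 43.8 to 52.2 in the 4 KO libraries.

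Markers of differentiated hepatocytes were nearly absent. None of 14 hepatocyte markers, Alb and Hnf4a among them, was listed in the Myc vector experiment, and only Apob was listed in the HU experiment, at 0 to 5.997 CPM. Of markers for neutrophils and macrophages, which make much lipocalin-2, only Cd68 of 12 was listed (1.48 to 6.30 CPM in the Myc vector experiment). Of 8 fibroblast markers 7 were listed, with 2911 to 4250 CPM in sum, most of it Vim (2731 to 3531 CPM), while Acta2 was at 0 to 4.06 and Pdgfra at 3.21 to 6.49 CPM. The rest ranged widely: Col3a1 from 5.54 to 370.2 CPM, Pdgfrb from 16.3 to 204, Col1a2 from 3.78 to 142 and Col1a1 from 11.6 to 87.7. Of 5 biliary markers 3 were listed (Krt19, Sox9 and Spp1), while Krt7 and Epcam were not. Those listed had 1087 to 2835 CPM in sum, most of it Spp1 (911 to 2232 CPM).

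Sequences upstream of the gene starts are shown for Lcn2, which varied most, and for Cebpb, the C/EBP gene with the highest level per length. They are given 5′ to 3′ on the strand of the gene in mm9, at chr2:32243318-32243509 (minus strand) for Lcn2 and chr2:167514165-167514414 (plus strand) for Cebpb, and were taken from the RefSeq promoter table (GRCm38.p6), in which 4 of the 6 genes matched, each with exactly 1 match of its window in mm9. The last 58 bases of the Lcn2 window lie within the gene as GENCODE annotates it and were left out. Capitals mark a match to the C/EBP half-site pair TTGCNNAA in Lcn2 and matches to the CREB/ATF core TGACG, on either strand, in Cebpb.
Lcn2: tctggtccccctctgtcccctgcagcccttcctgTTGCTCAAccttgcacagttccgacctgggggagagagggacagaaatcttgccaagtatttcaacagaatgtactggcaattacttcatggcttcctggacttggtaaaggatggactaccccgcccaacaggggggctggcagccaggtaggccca
Cebpb: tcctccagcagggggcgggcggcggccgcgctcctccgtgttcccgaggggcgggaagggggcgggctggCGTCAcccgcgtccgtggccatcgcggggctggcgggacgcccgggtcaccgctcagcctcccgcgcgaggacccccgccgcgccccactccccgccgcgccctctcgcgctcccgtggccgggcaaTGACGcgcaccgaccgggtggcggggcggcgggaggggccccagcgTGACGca
The Lcn2 match lies 216 to 209 bases before the RefSeq start, and 9.56% of 32851 promoter windows of 250 bases hold TTGCNNAA on either strand. The Cebpb window holds 3 matches to TGACG, a motif found in 17.8% of the windows. The windows of Cebpa and Cebpg held neither motif. None of the 4 windows matched the C/EBP palindrome TTGCGCAA (0.164% of all windows), the C/EBP-ATF composite TGATGNAAT (0.816%) or an NF-kB consensus (3.9%), which says only that these letters are not in these windows. G and C made up 56.4% of the Lcn2 window and 81.6% of the Cebpb window, against a median of 52.4% over all windows.

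Lcn2 differed more between groups than any other member. The gene (Entrez 16819; chr2:32240153-32243317, minus strand, mm9) was at 4.52 and 4.65 CPM in WT Ctrl, while KO1 Ctrl had 14.8 and 21.4 CPM and KO2 Ctrl had 0.392 and 0.390, which is 6 counts in each KO2 library. The 3 groups did not overlap, with KO1 above and KO2 below WT. In such bulk RNA, fewer expressing cells and less RNA per cell cannot be told apart. The log2 fold change against WT was 1.98 in KO1 (standard error, SE, 0.19) and −3.53 in KO2 (SE 0.41). Both comparisons share the WT Ctrl libraries, and KO1 stood 45.4-fold above KO2. This difference is among those that chose the genes. Some fibroblast markers were, like Lcn2, highest in KO1 Ctrl. The collagen gene Col3a1 had 6.22 and 5.54 CPM for WT Ctrl against 370.2 and 318 for KO1 Ctrl, with KO2 Ctrl at 44.6 and 38.6. The receptor gene Pdgfrb had 16.3 and 16.9 CPM for WT Ctrl against 191 and 168 for KO1 Ctrl, with KO2 Ctrl at 106 and 98.1. Both were above WT in KO2 too, where Lcn2 was below it. Col1a1 had the order of Lcn2, with 29.5 and 29.8 CPM for WT Ctrl, 87.7 and 85.0 for KO1 Ctrl, and 24.7 and 22.25 for KO2 Ctrl. Col1a2 had this order too, with 131 and 129 CPM for WT Ctrl, 142 and 141 for KO1 Ctrl, and 17.2 and 14.6 for KO2 Ctrl. Pdgfra was not highest in KO1 Ctrl, with 5.23 and 6.49 CPM for WT Ctrl, 5.19 and 5.13 for KO1 Ctrl, and 5.88 and 6.31 for KO2 Ctrl. Vim had 2922 and 2731 CPM for WT Ctrl, 3410 and 3531 for KO1 Ctrl, and 3092 and 3064 for KO2 Ctrl. The part of these markers in the result was not tested.

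The order of the knockout labels was the opposite with the Myc vector. Lcn2 was at 6.63 and 5.80 CPM in the libraries labelled WT Myc and at 6.28 and 5.13 in those labelled KO1 Myc, but the libraries labelled KO2 Myc had 13.2 and 16.1 CPM. Col3a1 was also highest in the latter, at 354 and 341 CPM, as were Col1a1 and Pdgfrb. Col1a2 was instead highest under the label WT Myc, at 119 and 123 CPM against 91.2 and 86.9 under KO2 Myc. For Lcn2, the libraries labelled KO2 Myc were above all others with this vector, and those labelled WT Myc and KO1 Myc overlapped. Taken by their labels, Lcn2 changed with Myc by −1.66 in KO1 (SE 0.17) and by 5.20 in KO2 (SE 0.31) on the log2 scale. As described above, most genes that separate the knockout lines turned in the same way.

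Averaged over both knockout lines, Lcn2 rose with the Myc vector by 1.77 on the log2 scale (SE 0.21, adjusted p = 3.89e-06 by edgeR's quasi-likelihood test with Benjamini-Hochberg adjustment over all genes). A gene is called here when this adjusted p is below 0.01, or below 0.05 where HU is compared with untreated cells. By the labels, the rise of Lcn2 in the KO mean averages −1.66 in KO1 and 5.20 in KO2, so it was not shared by both lines. It rests on KO2 Ctrl, with 6 counts in each library. These libraries are also part of the difference between the lines that chose the genes. The adjusted p-values of Lcn2 that include them are therefore not independent of that choice. Group means of Lcn2 were 18.1 CPM for KO1 Ctrl, 0.391 for KO2 Ctrl, 5.70 for KO1 Myc and 14.65 for KO2 Myc. Between the libraries labelled WT the change was 0.43 (SE 0.22, adjusted p = 0.106). The difference by vector was greater in the KO mean than under the label WT, by 1.34 (SE 0.33, adjusted p = 0.00346), although leaving out either KO2 Ctrl or either WT Ctrl library raised the adjusted p of this difference to between 0.0139 and 0.019. The KO mean did not pass the threshold against WT with the Ctrl vector (−0.77, SE 0.29, adjusted p = 0.0272), where it averages a higher and a lower line, and without the second KO1 Ctrl library it did (−0.92, adjusted p = 0.00318). Among libraries labelled Myc, the KO mean was 0.56 above those labelled WT (SE 0.17, adjusted p = 0.0118), and without the first library labelled KO2 Myc this passed as well (0.63, adjusted p = 0.00802).

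**Figure D1:**
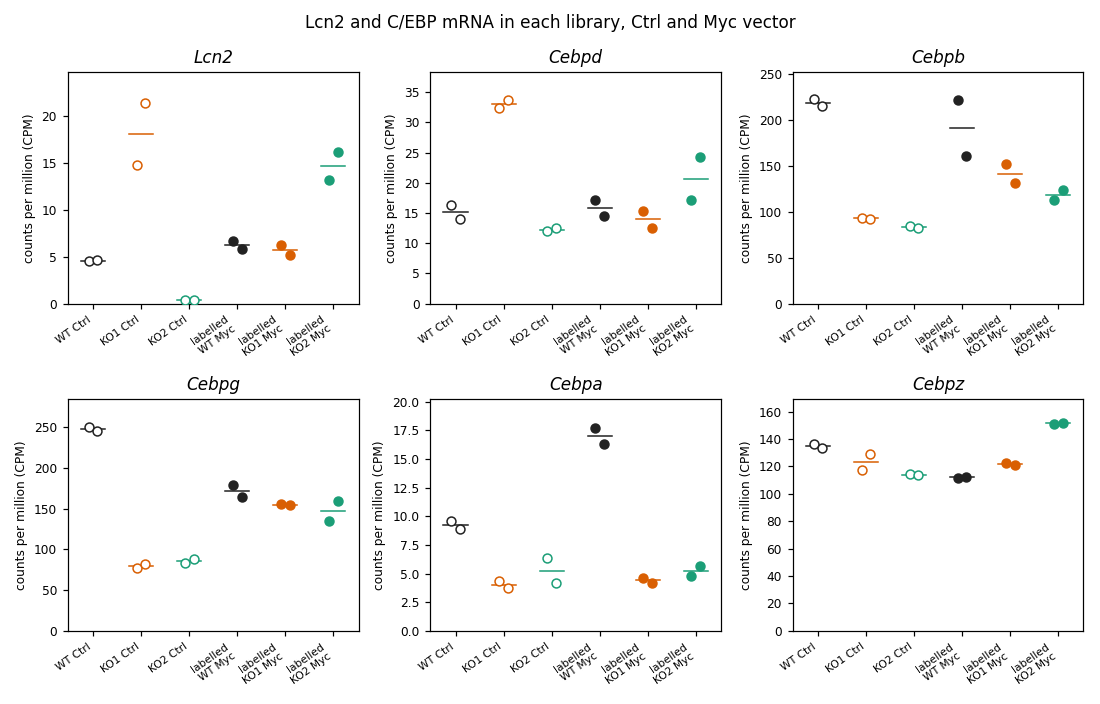
Level of each gene in the 12 libraries of the Myc vector experiment, in CPM on a linear axis from 0. Points are libraries (open, Ctrl vector; filled, Myc vector) and lines are means of 2. Lcn2 and Cebpd were highest in KO1 Ctrl, whereas Cebpb and Cebpg were lowest in the knockout groups with the Ctrl vector.

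Cebpd, which encodes a C/EBP factor that is itself induced in the acute phase response, shared the order of Lcn2 in part. The gene (chr16:15887379-15888559, mm9, which GENCODE lists as a pseudogene in this release) was at 16.3 and 14.0 CPM in WT Ctrl, while KO1 Ctrl had 32.4 and 33.8 CPM and KO2 Ctrl had 11.95 and 12.6. KO1 was above all other groups, and WT and KO2 did not overlap but lay close together. The log2 fold change against WT was 1.13 in KO1 (SE 0.14) and −0.30 in KO2 (SE 0.16). Among the Myc vector libraries, Cebpd was at 17.2 and 14.5 CPM in those labelled WT, at 15.3 and 12.5 under the label KO1 and at 17.1 and 24.2 under the label KO2. The libraries labelled WT overlapped with both others, whereas those labelled KO2 were above those labelled KO1. Over the 6 group means of this experiment, log2 levels of Cebpd and Lcn2 had a Pearson's r of 0.76 and a Spearman's rho of 0.94, and 232 of 10439 genes had a higher r with Lcn2 than Cebpd had. These means share libraries and depth. They also hold the difference between the knockout lines, which is among those that chose the genes, so that nothing is read from this correlation.

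None of the averaged comparisons of Cebpd in the Myc vector experiment passed the threshold. The KO mean was 0.41 above WT with the Ctrl vector (SE 0.13, adjusted p = 0.0122), and it was called when only the Ctrl vector libraries entered the fit (0.42, adjusted p = 0.000116). Among libraries labelled Myc it was 0.11 above those labelled WT (SE 0.13, adjusted p = 0.517). The difference by vector was 0.06 under the label WT (SE 0.15, adjusted p = 0.752) and −0.24 in the KO mean (SE 0.10, adjusted p = 0.0597). Without the second library labelled KO2 Myc, which had the higher Cebpd level of that pair, the latter was called as lower (−0.38, adjusted p = 0.00365).

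**Figure D2:**
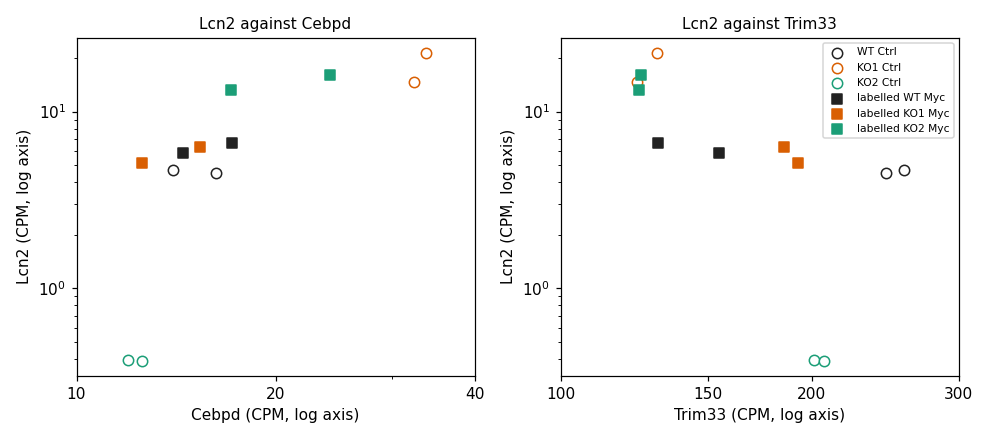
Lcn2 level against Cebpd (left) and Trim33 (right) in the 12 libraries of the Myc vector experiment, in CPM on log axes. Circles are Ctrl vector libraries and squares are libraries labelled Myc. KO1 Ctrl and the libraries labelled KO2 Myc share high Lcn2 and low Trim33 levels, and KO2 Ctrl stands apart with 6 counts of Lcn2 in each library. The libraries labelled WT Myc also had low Trim33, at 131 and 155 CPM, but their Lcn2 was at 6.63 and 5.80 CPM.

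Cebpb and Cebpg were lower in each knockout line with the Ctrl vector, where Lcn2 was higher in KO1 and lower in KO2. Both C/EBP genes were higher with Myc than without in the KO mean and under each knockout label, whereas Lcn2 was higher under the label KO2 only. Cebpb, a gene with a single exon (chr2:167514415-167515918, mm9), was at 222 and 215 CPM in WT Ctrl. KO1 Ctrl had 93.5 and 91.9 CPM, and KO2 Ctrl had 84.2 and 82.2. All knockout libraries were below both WT libraries. The KO mean was lower (log2 fold change −1.32, SE 0.09, adjusted p = 2.74e-09, edgeR). Among the Myc vector libraries, Cebpb was at 222 and 161 CPM in those labelled WT, at 152 and 131 under the label KO1 and at 113 and 124 under the label KO2. Those labelled WT Myc were again the highest, with a wide gap between them, and the KO mean remained lower (−0.57, SE 0.09, adjusted p = 9.7e-05). Cebpb was higher in the KO mean with Myc than without, by 0.56 (SE 0.08, adjusted p = 2e-05). Between the libraries labelled WT the change was −0.19 (SE 0.11, adjusted p = 0.134), and it was −0.44 without the first library labelled WT Myc, where it was called as lower (adjusted p = 1.57e-05), and 0.02 without the second. The responses differed by 0.75 (SE 0.13, adjusted p = 0.000211).

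Cebpg, the partner of Atf4, was at 249.98 and 246 CPM in WT Ctrl. KO1 Ctrl had 77.6 and 82.5 CPM, and KO2 Ctrl had 83.0 and 87.9. No knockout library came near WT, the log2 fold change being −1.63 in KO1 (SE 0.07) and −1.54 in KO2 (SE 0.07), and the KO mean was lower (−1.58, SE 0.06, adjusted p = 1.83e-12, edgeR). In the libraries labelled WT Myc it was at 178 and 165 CPM, against 156 and 154 for the label KO1 Myc and 135 and 160 for KO2 Myc. Those labelled WT were the highest, but the labelled KO1 and KO2 libraries overlapped each other and the KO mean did not pass the threshold against them (−0.18, SE 0.06, adjusted p = 0.0231). Without the second library labelled WT Myc or KO2 Myc this difference was called (adjusted p = 0.00408 and 0.00229).

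Cebpg differed between the vectors in opposite directions under the labels WT and KO. Libraries with the label WT Myc were below those of WT Ctrl (−0.53, SE 0.07, adjusted p = 1.09e-05) and the KO mean was higher with Myc (0.87, SE 0.05, adjusted p = 2.13e-09), a difference of 1.40 (SE 0.09, adjusted p = 4.99e-09). By the labels, the rise was 0.95 in KO1 (SE 0.08) and 0.78 in KO2 (SE 0.07). Cebpg lies on chromosome 7 (chr7:35831441-35841522, minus strand, mm9), 62789 bases from Cebpa. Cebpa differed between the libraries labelled WT in the other direction.

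Cebpa, the hepatocyte factor, was expressed at a low level. WT Ctrl had 9.61 and 8.89 CPM, KO1 Ctrl had 4.32 and 3.75, and KO2 Ctrl had 6.34 and 4.16, so that all knockout libraries were below WT. The KO mean was lower (−1.01, SE 0.15, adjusted p = 1.9e-05, edgeR). In the libraries labelled WT Myc, Cebpa was at 17.7 and 16.3 CPM, the highest levels of the experiment, whereas the label KO1 Myc had 4.59 and 4.20 CPM and KO2 Myc 4.75 and 5.69. The label WT Myc was thus above WT Ctrl (0.88, SE 0.14, adjusted p = 6.59e-05), although Trim33 and Myc mRNA do not follow that label, and in the KO mean the change was 0.06 (SE 0.14, adjusted p = 0.739). The KO mean was also below the libraries labelled WT Myc (−1.82, SE 0.13, adjusted p = 8.97e-09). The responses to Myc differed by −0.82 (SE 0.20, adjusted p = 0.0028), a call that was lost without the first KO1 Ctrl library (adjusted p = 0.0113) or the second WT Ctrl library (adjusted p = 0.0196).

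Cebpz had the narrowest range of group means in the Myc vector experiment, yet it was called in all 5 comparisons below. WT Ctrl had 136 and 133 CPM, KO1 Ctrl had 118 and 129, and KO2 Ctrl had 115 and 114. Under the Myc labels WT had 112 CPM in both libraries, KO1 had 122 and 121, and KO2 had 151 and 152. The libraries labelled KO2 Myc were above all others. The KO mean was lower with the Ctrl vector (−0.18, SE 0.05, adjusted p = 0.00328) and higher with the Myc vector (0.28, SE 0.05, adjusted p = 0.000243), the label WT Myc being below WT Ctrl (−0.26, SE 0.06, adjusted p = 0.000816) and the KO mean being higher with Myc (0.19, SE 0.04, adjusted p = 0.000578). The responses differed by 0.46 (SE 0.07, adjusted p = 4.6e-05). The difference between the libraries labelled WT was no longer called when only these entered the fit (adjusted p = 0.0168). The difference with the Ctrl vector was no longer called at a filter of 5 CPM (adjusted p = 0.0102) or without either WT Ctrl library (adjusted p = 0.0369 and 0.018), the first KO1 Ctrl library (0.0187) or the second KO2 Ctrl library (0.0115).

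Per length of exon, Cebpb was the most abundant of the 6 genes in WT Ctrl, at 145 RPKM (CPM per kilobase of exon, mean of 2 libraries, SD 3.49). Cebpg followed at 50.2 (SD 0.62), Cebpz at 33.1 (SD 0.47), Cebpd at 12.8 (SD 1.34), Cebpa at 3.51 (SD 0.19) and Lcn2 at 1.99 (SD 0.04). In KO1 Ctrl, Cebpg was at 16.2 RPKM (SD 0.70), below Cebpz at 30.3 (SD 1.96). The lengths are those of GENCODE exons in mm9, and the exon length of Cebpd there (1180 bases) is shorter than the gene in RefSeq (2260 bases).

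Counted over all members, 4 of 6 were lower and none higher in the KO mean with the Ctrl vector (Cebpa, Cebpb, Cebpg and Cebpz), where 55.5% of the 13107 genes were called in either direction and 29.5% as lower. Between the groups labelled Myc, 2 were lower and 1 higher, against 33.8% of all genes called and 17.8% called lower. Between the groups labelled WT, 3 members differed by vector, 1 of them upwards (44.3% of all genes called, 21.6% higher), and 4 in the KO mean, all upwards (42% called, 21.1% higher). The difference by vector differed between the KO mean and the label WT for 5 members, 4 of them towards higher values (34.7% of all genes called, 18.1% higher). This last comparison was added after the data had been seen. With so many genes called, nothing particular to the members is read from these counts. The plot of fold changes shows that the direction of Cebpg and Cebpz differed between the label WT and the KO mean.

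**Figure D3:**
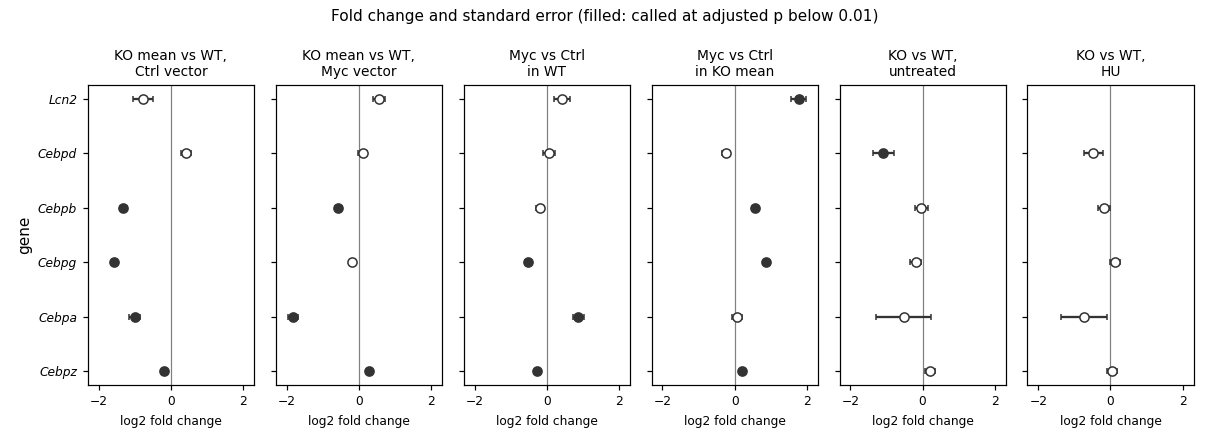
Log2 fold change with its standard error for each gene (rows) in 6 comparisons (panels), from edgeR. Filled points had an adjusted p below 0.01, and Lcn2 has no value in the HU experiment. Cebpg lies to the left of 0 for Myc against Ctrl in WT and to the right in the KO mean.

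In the HU experiment Cebpd was called between the genotypes, in untreated cells only. It was at 25.7 and 33.1 CPM in untreated WT and at 13.0 and 14.7 in untreated KO libraries, without overlap, and was lower in KO (−1.08, SE 0.28, adjusted p = 0.00539). This call was lost with DESeq2 (adjusted p = 0.0228), with only the untreated libraries in the fit (0.0106) and without either KO library or the second WT library (up to 0.0941). Cebpd was the only member of 5 that was called there, while 5.58% of 11210 genes were called and 2.52% as lower. The untreated groups did not overlap for Cebpg and Cebpz either, which were not called. With 2 libraries a group, groups that do not differ fail to overlap with a probability of 0.333, so nothing is read from a lack of overlap here. Cebpg was at 90.8 and 105 CPM in untreated WT and at 86.6 and 84.9 in untreated KO, a difference of −0.19 (SE 0.15, adjusted p = 0.456). Cebpb was at 43.7 and 79.7 CPM in untreated WT, the widest gap of its pairs in this experiment, and at 55.3 and 66.2 in untreated KO (−0.03, SE 0.18, adjusted p = 0.948). Whether Cebpg and Cebpb differed from WT by less here than in the Ctrl vector libraries was not tested, since the experiments were normalized separately.

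HU-treated WT and KO cells were not distinguished by any of the 5 members at an adjusted p below 0.01 by edgeR, while 6.04% of all genes were called. None of the 5 had an unadjusted p under 0.05, and DESeq2 called none. Cebpd was at 37.5 and 29.8 CPM in WT and at 22.6 and 26.1 in KO, without overlap (−0.47, SE 0.25, adjusted p = 0.244). Cebpb was at 93.5 and 92.1 CPM in WT and at 83.4 and 79.8 in KO (−0.19, SE 0.17, adjusted p = 0.563). For Cebpb and Cebpa the groups did not overlap either, and nothing is read from this. Cebpg was at 118 and 109 CPM in WT and at 130.1 and 117 in KO (0.13, SE 0.14, adjusted p = 0.638), and here the groups overlapped.

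Responses to HU were part of the choice of these genes and are given without a test. Cebpb changed by 0.58 in WT (SE 0.18) and 0.42 in KO (SE 0.18), and the value in WT was 1.07 without the second untreated WT library, the higher of that pair, and 0.21 without the first. Cebpd changed by 0.19 in WT (SE 0.25) and 0.80 in KO (SE 0.28), and Cebpg by 0.21 (SE 0.14) and 0.53 (SE 0.14). Cebpz went the other way, from 127 and 119 CPM in untreated to 93.2 and 102 in HU-treated WT cells (−0.33, SE 0.14) and from 146 and 138 to 105 and 96.8 in KO cells (−0.49, SE 0.14). Cebpa had only 4 to 24 counts per library, and its changes of 0.97 in WT (SE 0.66) and 0.77 in KO (SE 0.75) were within their error. Over all genes, HU against untreated called 9.83% in WT and 6.45% in KO. The difference of the HU response between KO and WT did not pass the threshold of 0.05 for any of the 5 members by edgeR or DESeq2, nor an unadjusted p of 0.05, where 0.0714% of all genes were called. It was 0.61 for Cebpd (95% interval −0.13 to 1.35, adjusted p = 0.947) and 0.32 for Cebpg (−0.08 to 0.71, adjusted p = 0.947).

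**Figure D4:**
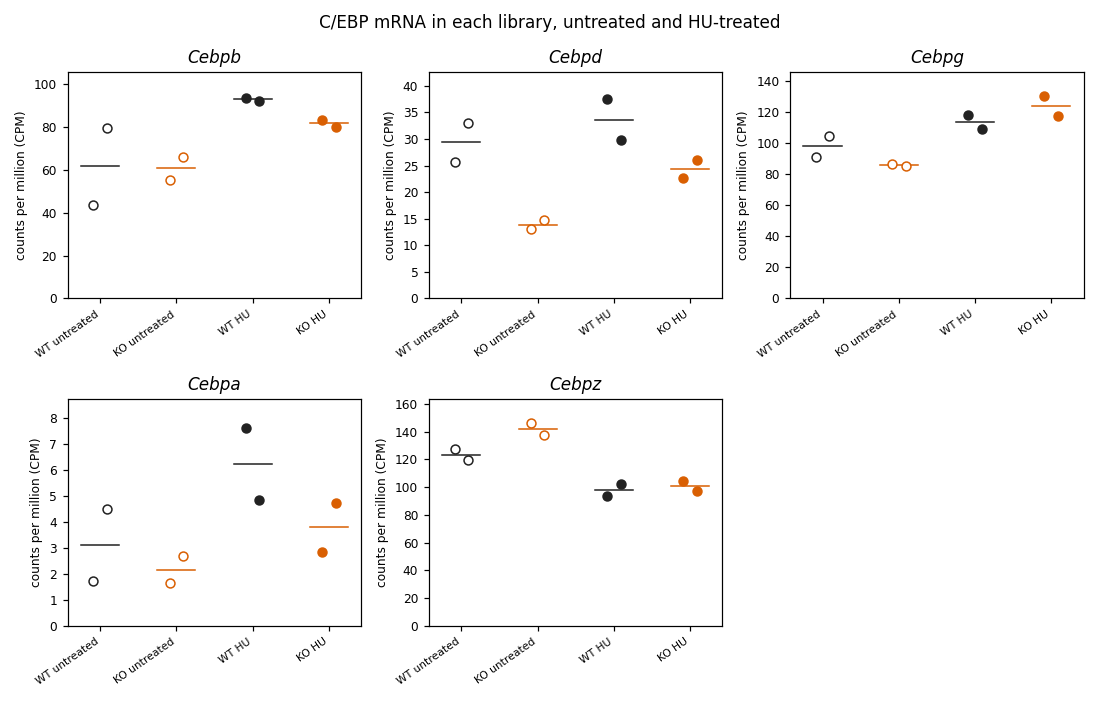
Level of each gene in the 8 libraries of the HU experiment, in CPM on a linear axis from 0. Points are libraries (open, untreated; filled, HU) and lines are means of 2. Cebpd was lowest in untreated KO libraries, at 13.0 and 14.7 CPM, and Cebpz was lower in all HU-treated than in all untreated libraries.

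Counts in the HU experiment were mostly even numbers. Of counts from 1 to 50, 71.9% were even, against 48.4% in the Myc vector experiment. Among the members, Cebpa, Cebpb and Cebpd had even counts in 8 of 8 libraries, Cebpg in 7 and Cebpz in 2. Of genes with a single exon, 44.5% had even counts in every library, against 9.36% of genes with several. Dividing the counts of the HU experiment by 2 moved no call of a member. In the Myc vector experiment Lcn2 had even counts in 11 of 12 libraries, and the other members in 4 to 8.

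Genes around the factors were followed as lists. Of 8 targets of C/EBP-ATF composite sites, which ATF4 and its partners use, all 8 were lower in the KO mean with the Ctrl vector, with a median log2 fold change of −2.49 against −0.01 over all genes and 29.5% of all genes called lower. Trib3, a pseudokinase that feeds back on ATF4, fell furthest, from 265 and 267 CPM in WT Ctrl to between 11.9 and 14.5 in the knockout libraries (−4.33, SE 0.15, adjusted p = 6.13e-13, edgeR). Asns, asparagine synthetase, fell from 652 and 655 CPM to between 83.2 and 87.0 (−2.95, SE 0.09, adjusted p = 1.46e-13). Chac1, which degrades glutathione, fell as well (−3.11, SE 0.11, adjusted p = 4.95e-13), as did the stress-induced factor Atf3 (−2.60, SE 0.16, adjusted p = 7.3e-10).

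With Myc these 8 genes were all higher in the KO mean (median 1.51, 21.1% of all genes called higher). Between the libraries labelled WT none was higher and 3 were lower (median −0.18, 44.3% of all genes called in either direction). The difference by vector was greater in the KO mean than under the label WT for all 8 (median 2.02, 18.1% of all genes called higher). Trib3 reached 186 and 171 CPM under the label KO1 Myc and 115 and 178 CPM under KO2 Myc. Against the libraries labelled WT Myc, 7 of the 8 were still lower, with a median of −0.52. There 33.8% of all genes were called, 17.8% as lower. In untreated cells of the HU experiment 1 was higher in KO (Slc7a11, the cystine transporter, 0.52) and 1 lower (Vldlr, a lipoprotein receptor, −0.78), while 5.58% of all genes were called. All 8 were higher with HU in both genotypes, with medians of 2.14 in WT and 1.68 in KO, where 6.39% and 4.65% of all genes were called higher. Atf3 changed by 6.26 in WT (SE 0.28) and by 6.03 in KO (SE 0.25). The response of such targets to HU is among the values that chose these genes, so that nothing is read from these counts.

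**Figure D5:**
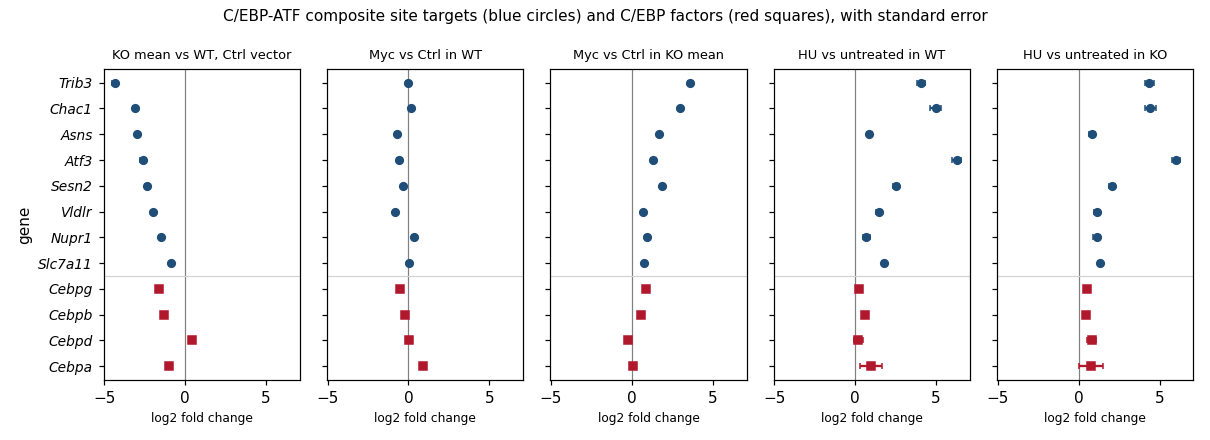
Log2 fold change with its standard error of 8 composite site targets (blue circles) and 4 C/EBP genes (red squares) in 5 comparisons. In the first panel all 8 targets lie left of 0, with Cebpg, Cebpb and Cebpa. In the third panel the 8 targets lie right of 0, and in both HU panels they do so again.

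Among 18 partners and regulators of C/EBP factors, 13 were tested in the Myc vector experiment, and 6 were higher and 5 lower in the KO mean with the Ctrl vector, where 55.5% of all genes were called. The partners of Cebpg were in the lower group: Atf4 went from 1230 and 1191 CPM in WT Ctrl to between 336 and 373 in the knockout libraries (−1.79). Atf5 was lower as well (−2.57), as was Ddit3 (−2.91), which encodes the inhibitory C/EBP family member CHOP. Id2, an inhibitor of helix-loop-helix factors, rose (1.46, SE 0.07, adjusted p = 2.39e-11). With Myc, Atf4 (1.24) and Ddit3 (2.27) rose in the KO mean, and Id2 fell (−1.75). Under HU the change was 3.80 in WT and 3.67 in KO for Ddit3, and 1.44 and 1.70 for Nfil3, a leucine zipper repressor.

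The acute phase and inflammatory targets of C/EBP factors differed from WT in both directions with the Ctrl vector and mostly downwards among the libraries labelled Myc. Of 32 genes, 14 were tested in the Myc vector experiment and 6 in the HU experiment. In the KO mean with the Ctrl vector 3 were higher and 3 lower, with a median of −0.03 and 55.5% of all genes called. Against the libraries labelled WT Myc, 1 was higher and 8 were lower in the KO mean (median −0.96), where 33.8% of all genes were called and 17.8% as lower. The difference by vector was lower in the KO mean than under the label WT for 6 and higher for 2 (median −0.98, 34.7% of all genes called). Against WT Ctrl the median was 0.63 for KO1 and −0.47 for KO2, comparisons that share the WT Ctrl libraries. In KO1 Ctrl 6 were higher and none lower than in KO2 Ctrl, with 18.3% of all genes called and 9.96% as higher, and since this difference is among those that chose the genes, nothing is read from that count. Saa3, a serum amyloid gene, had the order of Lcn2 with the Ctrl vector, with 1.06 and 1.03 CPM for WT, 2.53 and 2.69 for KO1, and 0 and 0.13 for KO2 (0 and 2 counts). C3, a complement component, had 3.46 and 3.42 CPM in WT Ctrl, 36.7 and 38.8 for KO1 Ctrl, and 13.3 and 10.8 for KO2 Ctrl, so that it was above WT in both lines. Saa3 was named after its values were seen.

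In the libraries labelled WT Myc, 10 of the 14 acute phase genes were higher and 3 lower than in WT Ctrl (median 1.66, with 44.3% of all genes called in either direction). C3 rose by 3.71 (SE 0.16, adjusted p = 9.52e-11, edgeR), the chemokine Ccl2 by 2.45 (SE 0.08, adjusted p = 4.21e-12) and Cxcl1 by 1.47 (SE 0.12, adjusted p = 6.29e-08). In the KO mean 7 were higher and 1 lower with Myc (median 0.57, with 42% of all genes called and 21.1% as higher). By the labels of the single lines, the median was −0.41 in KO1 and 1.11 in KO2. The response of 6 tested genes to HU, which is among the values that chose the genes, had a median of 1.33 in WT and 1.38 in KO. Ptgs2, the inducible cyclooxygenase, had 743 and 665 counts in the untreated WT libraries and 4574 and 4124 in the HU-treated.

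Of 21 cytokines, receptors and transducers upstream of Cebpb and Cebpd, 18 were tested with the vectors, of which 7 were higher and 2 lower in the KO mean with the Ctrl vector (median 0.15), where 55.5% of all genes were called. In untreated cells of the HU experiment 2 of 17 were lower in KO and none higher, with 5.58% of all genes called, namely Osmr, the oncostatin M receptor (−1.83, SE 0.47, adjusted p = 0.00588), and Lifr (−1.80, SE 0.36, adjusted p = 0.000313). Of the metabolic and differentiation targets of C/EBPα, 7 of 14 were tested, 2 higher and 3 lower in the KO mean with the Ctrl vector. Of 9 genes for lipocalin-2 receptors and iron handling 6 were tested, 4 higher and 2 lower. Both counts stand against 55.5% of all genes called and 29.5% called lower.

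Genes with the pattern most like each member over the 10 group means, centred within each experiment, were sought among 10073 genes with at least 5 CPM. For Cebpg these were Yars (Pearson's r 0.98), Asns (0.98) and Phgdh (0.97). For Cebpb they were Calcoco1, Spata2 and Ormdl3 (all 0.96), for Cebpd Pld3 (0.97), Ncln (0.94) and R3hdm4 (0.92), for Cebpa Pfkl, Hes1 and Map2k6 (0.91 to 0.92), and for Cebpz Pwp2 (0.96), Ddx21 (0.93) and Tagap (0.92). For Lcn2, with 6 group means and 10439 genes, they were Kat8, Ascc1 and Ndufs7 (all 0.97). Within the family, Cebpb and Cebpg were the most alike over the 6 groups of the Myc vector experiment (r 0.95). Of 10439 genes, 237 had a higher r with Cebpg than Cebpb had. All of these group means share libraries and depth. They also hold the difference between the knockout lines, and the 10 means hold the responses to HU. Both are among the values that chose the genes, so that nothing is read from these likenesses. By Spearman's rho, all 3 genes named for Cebpb were among its 3 highest, 1 of the 3 for Cebpa, Cebpd, Cebpg and Cebpz each, and 0 for Lcn2.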

How the data were processed

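RNA-seq of 20 libraries in 10 groups was analysed. Counts per gene were made by the authors and deposited as unnormalized whole numbers for 2 experiments; the submitters' notes name bcl2fastq 2.20, FastQC 0.11.5, STAR 2.5.4, mm9 and edgeR 3.26.8, and the counting tool is not given in the sources used here. The 8 deposited tables of the authors' own comparisons (log2 fold change, log2 CPM, F, p and FDR) were not used.

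From the counts, TMM-normalized CPM and edgeR 4.0.16 quasi-likelihood tests (R 4.3.3, limma 3.58.1) were computed for each experiment with all its groups in the fit, after filterByExpr, which removed no gene from the deposited tables, and with Benjamini-Hochberg adjustment over all genes. Calls used an adjusted p below 0.01, or 0.05 for HU against untreated cells and for the difference of the HU response. The pipeline was tested on simulated data. With 2 libraries a group an exact permutation test cannot go below p = 0.333, so each test borrows its spread across genes. Alternatives were DESeq2 1.42.0, its size factors in edgeR, filters on low counts, a replicate block, fits of only the groups compared, counts divided by 2 in the HU experiment, and leaving out each library.

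Members and gene lists were chosen with earlier results of these data known. Named are all members, Trim33, Myc, at most 4 genes per list and comparison with the largest change at a mean of 5 CPM or more, and the 3 genes most like each member by Pearson's r of log2 CPM with a prior count of 1. The other examples were chosen after their values were seen.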

Additional observations from a re-analysis of the deposited data

Results flagged for a closer look

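The difference between libraries labelled Myc and Ctrl was not the same in the mean of both knockout lines and under the label WT for 5 of the 6 genes. The difference in log2 fold change, KO mean minus WT, was −0.82 for Cebpa (edgeR's quasi-likelihood test, adjusted p = 0.0028), 0.75 for Cebpb (adjusted p = 0.000211), 1.40 for Cebpg (adjusted p = 4.99e-09), 0.46 for Cebpz (adjusted p = 4.6e-05) and 1.34 for Lcn2 (adjusted p = 0.00346). Of all genes, 34.7% were called in this comparison, and it rests on libraries whose Trim33 mRNA did not follow their labels. For Lcn2 it also rests on the KO2 Ctrl libraries, which are part of the difference between the lines that chose the genes.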

How the results depend on the processing

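With 2 libraries a group, leaving out a library leaves a group with 1, which is then assumed to vary like the others. Cebpa (4 to 24 counts in the HU experiment) and the shallow HU libraries limit precision most. Unfiltered counts, DESeq2's size factors in edgeR and divided counts changed no call of a member.

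The difference of the HU response was called for 8 genes, 5 with DESeq2 and 0 to 20 without a library (0 without the first HU-treated WT library, 20 without the first untreated WT library). Between HU-treated KO and WT cells 677 genes were called, 402 with DESeq2, 1099 with only the groups compared and 248 to 296 without a library. Between untreated KO and WT cells it was 626, 396 with DESeq2 and 337 to 459 without a library, and of the members 1, 0 with DESeq2, 0 with only the groups compared and 0 to 1 without a library. At 5 CPM in every library, where Lcn2 and Cebpa were not tested, 2 members instead of 4 were called for the KO mean with the Ctrl vector and 3 instead of 5 for the difference of the Myc response, which was 3 to 5 without a library. The cause was not tested.

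Directions turned without a library in these ranges of log2 fold change. For the difference of the HU response they were −1.06 to 0.31 for Cebpa and −0.65 to 0.21 for Cebpb, for KO against WT with HU −0.0196 to 0.113 for Cebpz, and untreated −1.03 to 0.33 for Cebpa and −0.39 to 0.47 for Cebpb. With the Myc vector they were −0.0439 to 0.203 for Cebpg between KO1 and KO2 and −0.0295 to 0.233 for Cebpd in the KO mean against WT. For Myc against Ctrl they were −0.0837 to 0.0486 for Cebpz in KO1, −0.28 to 0.33 for Cebpa in KO2, −0.0754 to 0.227 for Cebpa in the KO mean, and −0.441 to 0.0233 for Cebpb and −0.0609 to 0.184 for Cebpd in WT. None of these values had passed a test with all libraries.

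Samples with the same replicate number were compared by the correlation of their deviations between groups. Over 15 pairs of groups in the Myc vector experiment it was −0.355 to 0.485 (median 0.0512), with 4 above 0.1. Some groups of that experiment thus deviated together by replicate number, but the sign was not the same for all pairs. Over 6 pairs in the HU experiment it was −0.0247 to 0.0882, with none above 0.1. The replicate block turned Cebpa for Myc against Ctrl in KO2 from −0.0047 to 0.0013 and gave Lcn2 in the KO mean against WT with the Myc vector an adjusted p of 0.00928. It changed no other call of a member.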
